A study of Bos taurus with 16 samples.

Results

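The 10 genes described here were grouped as oocyte-expressed genes, some of them better known from germ cells in general. They were followed in RNA from the somatic cells of the bovine ovarian follicle: H1FOO (current symbol H1-8), BCL2L10, ZGLP1, TDRD15, TCL1B, ADAD1, SOHLH1, PABPC1L, RNF17 and SYCP2L. They are 10 of the 36824 gene entries in the count table. They were chosen by name, together with the pattern of their counts over the libraries, which had been seen to be high in contralateral cumulus library 4 and next in contralateral cumulus library 2 and contralateral granulosa library 3. Their levels are therefore given as a description, without a test.

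The study compared follicles of cattle (Bos taurus) by their place relative to the corpus luteum, the progesterone-secreting gland that forms after ovulation. Follicles were ipsilateral (from the ovary bearing the corpus luteum) or contralateral (from the opposite ovary), and cumulus cells and granulosa cells were profiled from each. This gave 4 groups with 4 libraries each, namely cumulus cells of either side and granulosa cells of either side. Per the design text each pool came from 3 animals, and whether animals recur between groups is not stated, so the spread between libraries is that between pools. The labels give no further agent, genotype, breed or age.

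As background, cumulus cells sit directly around the oocyte and leave the follicle with it as the cumulus-oocyte complex, whereas mural granulosa cells line the follicle wall. Per the design text the complexes were picked out of follicular fluid under a stereomicroscope, and the sources used here do not describe how oocytes and cumulus cells were separated. The growing oocyte stores maternal RNA, including transcripts for a linker histone, for germ-line transcription factors and for proteins that bind and regulate RNA, and somatic follicle cells are not known as their main source. In bulk RNA, few cells with much of a transcript and many cells with little of it cannot be told apart.

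Summed over the 10 genes, contralateral cumulus library 4 held 4932 of 6280 reads (78.5%), and the libraries named above together held 92.8%. The summed level was 280 CPM (counts per 1 M counts, after TMM scaling) in contralateral cumulus library 4, with a 95% counting interval from 272 to 288. It was 27.1 CPM (24.9 to 29.4) in contralateral cumulus library 2 and 16.8 CPM (15.1 to 18.7) in contralateral granulosa library 3. The other 13 libraries ran from 0.449 to 4.39 CPM, with a median of 2.5 CPM. The highest of these 13 was contralateral granulosa library 4. Even in contralateral cumulus library 4 the 10 genes made up 0.0294% of all counts. Counting intervals do not cover amplification or the spread between pools.

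**Figure D1:**
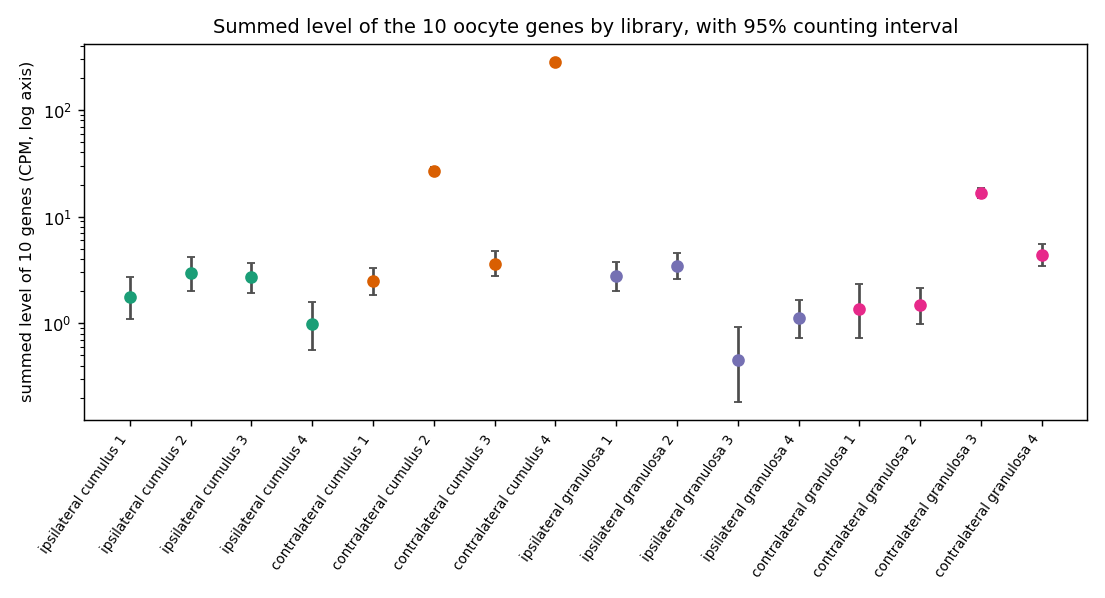
Summed level of the 10 oocyte genes in each of the 16 libraries, in CPM on a log axis, with the 95% counting interval as bars and colours for the 4 groups. Contralateral cumulus library 4 stands at 280 CPM, contralateral cumulus library 2 at 27.1 CPM and contralateral granulosa library 3 at 16.8 CPM, while the other 13 lie between 0.449 and 4.39 CPM.

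The first genes act on chromatin and transcription. H1FOO encodes the linker histone of the oocyte, which packs chromatin in place of somatic linker histones. It was counted 6, 1, 5 and 9 times in ipsilateral cumulus libraries 1 to 4 and 5, 184, 9 and 1632 times in contralateral cumulus libraries 1 to 4. In granulosa cells it was counted 1, 4, 0 and 0 times in ipsilateral libraries 1 to 4 and 0, 0, 106 and 0 times in contralateral libraries 1 to 4. H1FOO thus had 0 counts in 5 libraries, 1 to 9 in 8 and above 100 in the other 3. Its level in contralateral cumulus library 4 was 92.6 CPM, which was 10.3-fold that in contralateral cumulus library 2 (95% counting interval 8.87 to 12.1) and 17.6-fold that in contralateral granulosa library 3 (14.5 to 21.7). In cumulus cells the group mean of H1FOO was 0.371 ± 0.208 CPM for ipsilateral libraries (SD, n = 4) and 25.6 ± 44.9 CPM for contralateral ones (SD, n = 4), with an SD above the mean on the contralateral side. Contralateral cumulus libraries 1 and 3, at 0.266 and 0.584 CPM, lay at the level of the ipsilateral libraries (0.0917 to 0.548 CPM).

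ZGLP1 encodes a GATA-like zinc-finger protein of the germ line. It had 53 counts in contralateral cumulus library 2, 447 in contralateral cumulus library 4, 16 in contralateral granulosa library 3 and 1 in ipsilateral cumulus library 3. The remaining 12 libraries had 0 counts, which allows up to 3 counts, or 0.135 to 0.317 CPM depending on depth. The level in contralateral cumulus library 4, 25.4 CPM, was 9.83-fold (7.38 to 13.3) that in contralateral cumulus library 2 and 32.0-fold (19.5 to 56.5) that in contralateral granulosa library 3.

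SOHLH1, a basic helix-loop-helix transcription factor of early germ cells, was the lowest of the 10 genes in total counts. It had 47 counts in contralateral cumulus library 4 and 4 in contralateral cumulus library 2, a 13.7-fold difference in level (5.01 to 52.4). All other libraries, contralateral granulosa library 3 included, had 0 counts of SOHLH1. SOHLH1 made up 0.953% of the 10 genes' reads in contralateral cumulus library 4. In contralateral granulosa library 3 it had 0 of 339 reads, which by the exact binomial interval allows a share of up to 1.08%. This limit lies only just above 0.953%, so the absence is borderline. It does not settle whether the SOHLH1 share was lower in contralateral granulosa library 3.

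The next genes belong to survival and signalling. BCL2L10, a BCL2-family regulator of cell death that is abundant in oocytes, was counted 2, 14, 5 and 2 times in ipsilateral cumulus libraries 1 to 4. It was counted 16, 198, 4 and 1966 times in contralateral cumulus libraries 1 to 4. Granulosa counts of BCL2L10 were 5, 17, 1 and 4 in ipsilateral and 2, 0, 112 and 0 in contralateral libraries 1 to 4. BCL2L10 was thus found at low level in all 4 ipsilateral granulosa libraries, up to 1.11 CPM, and H1FOO in 2 of them, up to 0.262 CPM. Its 112 CPM in contralateral cumulus library 4 was 11.6-fold that in contralateral cumulus library 2 (10 to 13.5) and 20.1-fold that in contralateral granulosa library 3 (16.6 to 24.5).

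TCL1B, a member of the TCL1 family of kinase co-activators, had 28 counts in contralateral cumulus library 2, 195 in contralateral cumulus library 4 and 17 in contralateral granulosa library 3. It had 0 counts in each of the other 13 libraries, so that all 240 of its reads came from these 3. Contralateral cumulus library 4 held it at 11.1 CPM, 8.12-fold (5.45 to 12.5) and 13.1-fold (8 to 23) the level in the other 2.

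The remaining genes encode proteins of RNA control and meiosis. TDRD15, a tudor-domain protein related to those of the germ-line piRNA pathway, had 15, 312 and 7 counts in contralateral cumulus libraries 2 and 4 and contralateral granulosa library 3. No other library had more than 3. The step from contralateral cumulus library 2 to library 4 was 24.3-fold (14.5 to 43.9) for TDRD15, and its interval lay above those of H1FOO and BCL2L10. ADAD1, a germ-cell protein with an adenosine deaminase domain, had 38, 165 and 37 counts in the same libraries. Its highest count elsewhere was 5, in contralateral granulosa library 4. Contralateral cumulus library 4 exceeded contralateral cumulus library 2 by 5.06-fold (3.54 to 7.41) and contralateral granulosa library 3 by 5.11-fold (3.56 to 7.51) in ADAD1, intervals that lay below those of H1FOO and BCL2L10.

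PABPC1L, the poly(A)-binding protein of oocytes and early embryos, was spread more widely. It had 1, 8, 13 and 3 counts in ipsilateral cumulus libraries 1 to 4 and 0, 22, 22 and 114 in contralateral cumulus libraries 1 to 4. It had 30, 11, 0 and 15 counts in ipsilateral granulosa and 6, 3, 13 and 10 in contralateral granulosa libraries 1 to 4. It was highest in contralateral cumulus library 4 (6.47 CPM), but ipsilateral granulosa library 1 came next (1.94 CPM). The 3 libraries that stood out in the sum held 55% of its reads, against 98% for H1FOO.

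Like PABPC1L, RNF17 and SYCP2L did not follow the pattern by which the genes were grouped. RNF17, a RING-finger and tudor-domain protein of germ cells, had at least 1 count in all 16 libraries. Its counts were 1, 8, 11 and 1 in ipsilateral cumulus, 4, 5, 2 and 29 in contralateral cumulus, 2, 2, 6 and 3 in ipsilateral granulosa and 3, 9, 5 and 8 in contralateral granulosa libraries 1 to 4. It was highest in contralateral cumulus library 4, at 1.65 CPM, but contralateral cumulus library 2 and contralateral granulosa library 3 were not next. SYCP2L encodes a synaptonemal complex protein of oocytes. It had 9, 1, 4 and 0 counts in ipsilateral cumulus, 22, 9, 18 and 25 in contralateral cumulus, 4, 19, 0 and 0 in ipsilateral granulosa and 2, 14, 26 and 48 in contralateral granulosa libraries 1 to 4. SYCP2L was highest in contralateral granulosa library 4, at 2.92 CPM, and only 12.4% of its reads came from contralateral cumulus library 4. Ipsilateral cumulus libraries ran from 0 to 0.761 CPM of SYCP2L and contralateral cumulus libraries from 0.438 to 1.42 CPM, so the groups overlapped.

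**Figure D2:**
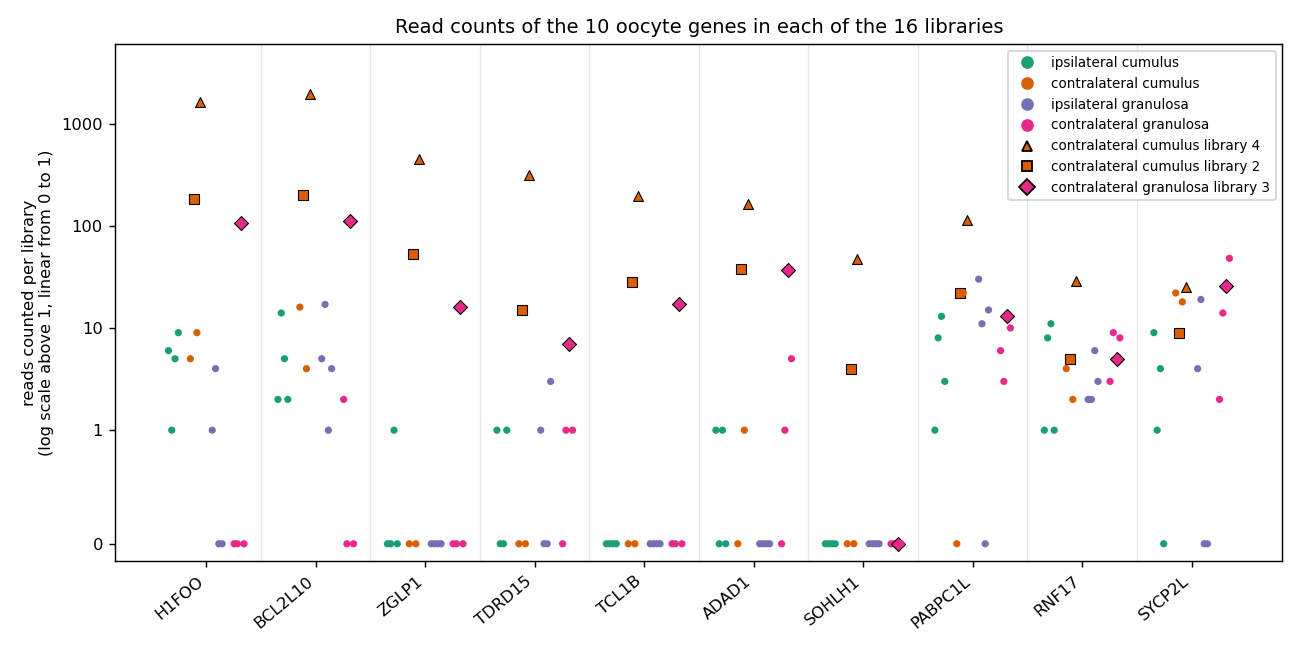
Reads counted for each of the 10 oocyte genes in each of the 16 libraries, on an axis that is linear from 0 to 1 and logarithmic above. Colours mark the 4 groups, and black-edged symbols mark contralateral cumulus library 4 (triangle), contralateral cumulus library 2 (square) and contralateral granulosa library 3 (diamond). The marked libraries lie above all others for H1FOO, BCL2L10, ZGLP1, TDRD15, TCL1B and ADAD1, while SYCP2L reaches its highest count, 48, in contralateral granulosa library 4.

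Across the 16 libraries, each gene's log2(CPM + 0.5) was set against that of the other 9 genes summed. Pearson's r was 0.958 for ADAD1, 0.947 for TCL1B, 0.941 for ZGLP1, 0.928 for BCL2L10 and 0.915 for H1FOO. It was 0.886 for TDRD15, 0.85 for SOHLH1 and 0.670 for PABPC1L, and lowest for RNF17 (0.519) and SYCP2L (0.336). These values describe the same 16 libraries on which the genes were grouped, and they rest largely on the distance of a few libraries from the rest.

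The make-up of the 10 genes' reads was then described library by library. The shares come from the same counts by which the genes were grouped, so they too are a description, without a test. H1FOO made up 33.1% of them in contralateral cumulus library 4 (95% exact binomial interval 31.8 to 34.4), 33.1% in contralateral cumulus library 2 (29.2 to 37.2) and 31.3% in contralateral granulosa library 3 (26.4 to 36.5). The H1FOO shares of the 3 libraries thus overlapped within counting error, while their summed levels differed 16.7-fold. The shares of TCL1B, at 3.95% (3.43 to 4.54), 5.04% (3.37 to 7.20) and 5.01% (2.95 to 7.91) in the same order, also overlapped. For BCL2L10 they were 39.9% (38.5 to 41.2), 35.6% (31.6 to 39.7) and 33.0% (28.1 to 38.3), so that contralateral granulosa library 3 lay just below contralateral cumulus library 4. Reads of H1FOO per read of BCL2L10 were 0.830 (0.777 to 0.887), 0.929 (0.756 to 1.14) and 0.946 (0.719 to 1.25), with overlapping intervals.

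The shares of other genes shifted between the 3 libraries by more than counting error. ADAD1 made up 3.35% of the reads in contralateral cumulus library 4 (2.86 to 3.89), 6.83% in contralateral cumulus library 2 (4.88 to 9.26) and 10.9% in contralateral granulosa library 3 (7.80 to 14.7). TDRD15 went the other way, with 6.33% (5.66 to 7.04), 2.70% (1.52 to 4.41) and 2.06% (0.834 to 4.21). SYCP2L made up 0.507% (0.328 to 0.747) of the reads in contralateral cumulus library 4 and 7.67% (5.07 to 11) in contralateral granulosa library 3. ZGLP1 had 9.06% and 9.53% in the cumulus libraries and 4.72% (2.72 to 7.55) in contralateral granulosa library 3.

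The other 13 libraries together held 453 reads of the 10 genes. In this pool SYCP2L made up 31.1% (26.9 to 35.6), PABPC1L 26.9% (22.9 to 31.3), BCL2L10 15.9% (12.6 to 19.6) and RNF17 13.2% (10.3 to 16.7). The order of SYCP2L and PABPC1L turned when contralateral granulosa library 4, with 48 of the 141 SYCP2L reads, was left out of the pool (24.4% and 29.4%), and when contralateral cumulus library 1 was (29.3% and 30%). Leaving libraries out of the pool was chosen after seeing the data. H1FOO made up 8.83% (6.38 to 11.8) there, ZGLP1 0.221% (0.00559 to 1.22), and TCL1B and SOHLH1 had no read. Without PABPC1L, RNF17 and SYCP2L, the summed level of the other 7 genes in these 13 libraries ran from 0.0641 to 1.38 CPM.

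**Figure D3:**
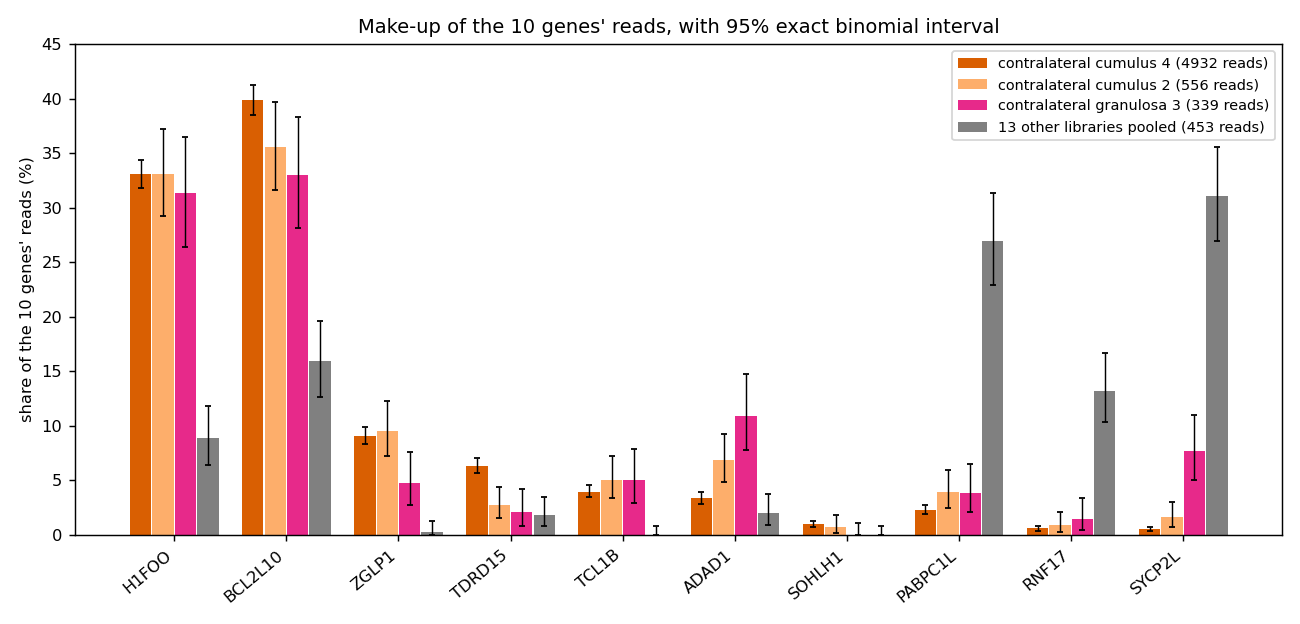
Share of each gene among the reads of the 10 oocyte genes, in percent, in contralateral cumulus library 4, contralateral cumulus library 2, contralateral granulosa library 3 and the other 13 libraries pooled, with 95% exact binomial intervals as error bars. H1FOO takes 33.1%, 33.1% and 31.3% in the single libraries and 8.83% in the pool, while SYCP2L takes 31.1% in the pool.

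Reads may be shared with other entries. The table holds an Ensembl entry, ENSBTAG00000001812, whose counts equal those of H1FOO in 11 of 16 libraries and differ from them by 3.11% of H1FOO's counts in all, and whether the same reads were counted under both was not tested. For the other 9 genes the nearest entry differed by 7.54% or more. ZGLP1, TCL1B and SOHLH1 each had an Ensembl entry with equal counts in 13 of 16 libraries, most of them at 0, and a difference of 7.54%, 8.33% and 9.8%, and for these too shared reads were not tested. In the RefSeq annotation BCL2L10 and RNF17 each overlap a pseudogene, ADAD1 overlaps IL2 and a long non-coding RNA, and SYCP2L overlaps GCM2. Since the library kits do not mark strand, reads in such overlaps cannot be assigned with certainty.

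Entries of the whole table were then ranked by the likeness of their log2(CPM + 0.5) to that of the summed 10 genes over the 16 libraries. Of 20193 entries with at least 50 counts, 108 besides the 10 genes had a Pearson's r of at least 0.9. All 108 were highest in contralateral cumulus library 4, and for 103 of them contralateral cumulus library 2 and contralateral granulosa library 3 were the next. Since r was taken with a sum that these libraries dominate, this order and the shares below follow largely from the choice of entries. Ensembl entries with counts close to those of 1 of the 10 genes were not set apart. These 108 entries made up 0.446% of the counts of contralateral cumulus library 4, 0.0452% of contralateral cumulus library 2 and 0.0310% of contralateral granulosa library 3. In the other 13 libraries they made up between 3.11e-04% and 0.00219%. Most, 86, carry only an Ensembl ID that the reference used here does not name, and 8 have a name.

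The named entry most alike was LOC112446404 (CCDC201, r = 0.953), which encodes a coiled-coil protein. It had 1387 counts in contralateral cumulus library 4, 154 in contralateral cumulus library 2, 87 in contralateral granulosa library 3 and 10 at most elsewhere. CCDC201 in contralateral cumulus library 4 exceeded the other 2 by 10.5-fold and 18.3-fold, close to the 10.3-fold and 17.6-fold of H1FOO. CNTD2, a cyclin-like gene (r = 0.946), had 462, 70 and 45 counts, and 2 in all other libraries together. LOC101904455 (H2BK1, r = 0.942), a histone H2B gene, had 179, 21 and 23 counts, and LOC505120 (TLE7, r = 0.923), of the Groucho family of corepressors, had 351, 37 and 68. LOC787740 (OR2A69, r = 0.902), annotated as an olfactory receptor gene, had 106, 7 and 6 counts and 0 in the other 13 libraries. These 5 entries had 9 counts or fewer in each of the other 13 libraries, apart from the 10 of CCDC201.

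The remaining named entries had r from 0.855 to 0.915. CXHXorf67 had 33, 17 and 12 counts in the same order of libraries, and SKOR1, of the SKI family of corepressors, had 62, 11 and 32. LOC112444303 (OCM), which encodes the calcium-binding protein oncomodulin, had 191, 31 and 7 counts, and HIST2H2BF, another histone H2B gene, had 134, 23 and 21. NELL1, a secreted glycoprotein gene, had 264, 33 and 11 counts, and HRH1, the histamine H1 receptor gene, had 214, 23 and 74. FAM19A1 (TAFA1) and FAM19A2, which encode small secreted proteins, had 26, 17 and 17 and 124, 16 and 11 counts. The uncharacterised C5H22orf46 and C2H2orf66 had 127, 7 and 31 and 150, 17 and 26 counts. FAM19A1 was the flattest of the 15, with contralateral cumulus library 4 exceeding contralateral cumulus library 2 by 1.78-fold. The list depends on the measure of likeness: by Spearman's rho, which uses only the order of libraries, 6 of these 15 entries were again among the first 15.

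**Figure D4:**
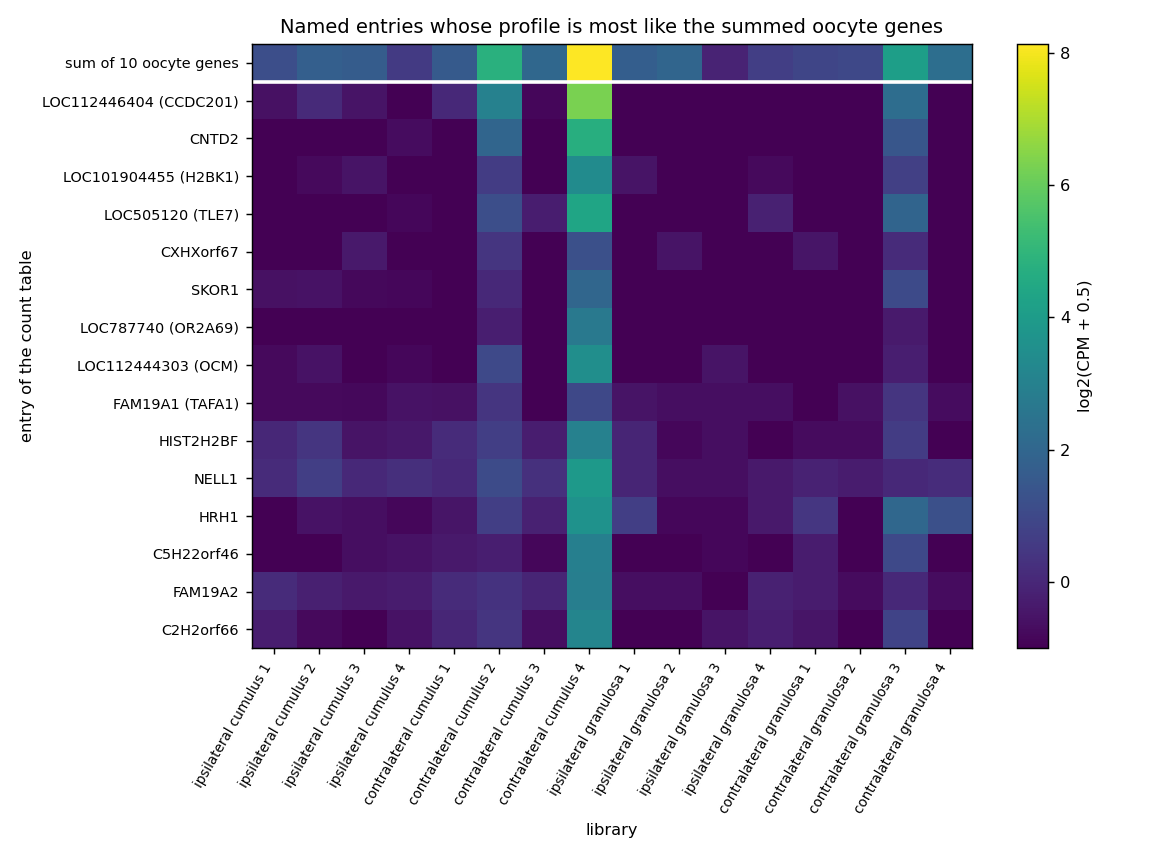
Level of the 15 named entries most like the summed oocyte genes, as log2(CPM + 0.5) by colour, with entries as rows and the 16 libraries as columns; the first row is the sum of the 10 genes. Contralateral cumulus library 4 is the brightest column in each row, and CCDC201 reaches 78.7 CPM there.

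The 20193 entries with at least 50 counts were also searched for those at 10 or more times the level of every other library. Counts below 3 were set to 3 for this. The 2 libraries that held the most such entries were contralateral granulosa library 3 with 85 and contralateral cumulus library 4 with 55. The other 14 held between 0 and 5. H1FOO, BCL2L10 and TDRD15 were among the 55 of 20193 entries, and none of the 10 genes was among the 85. The 10 genes were grouped for being high in contralateral cumulus library 4, so this place among the 55 follows largely from that choice. Library totals ran from 10.1 to 21.9 M counts. They were 16.8 M in contralateral cumulus library 4, 20 M in contralateral cumulus library 2 and 20.1 M in contralateral granulosa library 3. The part of depth was not tested.

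Markers of other cells were read in the same libraries, where they could be found by name. Only 7 of 87 listed markers could, and none of the usual cumulus and granulosa markers, so the labelled cell types were read from genes that had differed between them in earlier work on these libraries. The cumulus-high genes (HYDIN, C11H2orf40, KLHL31, EMB and COL25A1) summed to 179 CPM in contralateral granulosa library 3, within the 20.9 to 230 CPM of the other granulosa libraries. C11H2orf40 alone gave 134 CPM of that sum. EMB, at 30.2 CPM, lay above the other granulosa libraries (27.1 CPM at most), and the rest of these genes lay within their range. The granulosa-high genes (A2M, TIMP1, FXYD3, LYG1 and MUCL3) summed to 51.5 CPM in contralateral cumulus library 4 and 84.4 CPM in contralateral cumulus library 2, within the 18.3 to 106 CPM of the other cumulus libraries. TIMP1 alone gave 41.3 and 63 CPM of these sums. A2M in contralateral cumulus library 2, at 19.2 CPM, lay above the other cumulus libraries (16.8 CPM at most). The rest of these genes lay within their range. The 5 of 18 motile cilium markers that were found summed to 98.9 CPM in contralateral granulosa library 3, above the 14.6 to 36.8 CPM of the other granulosa libraries. CFAP44 and WDR63 made up most of that difference, at 32.1 and 19.6 CPM. The cilium markers summed to 139.5 and 145.6 CPM in contralateral cumulus libraries 4 and 2, within the 132 to 191 CPM of the others. The platelet gene PF4, 1 of 12 leukocyte markers, was at 0 in contralateral cumulus library 4, at 0.243 CPM in contralateral cumulus library 2 and at 3.67 CPM in contralateral granulosa library 3. The other cumulus libraries had up to 0.0648 CPM of PF4 and the other granulosa libraries 0.449 to 3.91 CPM. The surface epithelium gene MUC16, 1 of 8, was at 0, 2.09 and 24.7 CPM in the same order. The other 6 cumulus libraries had 0 of MUC16, and the other granulosa libraries 0 to 44.3 CPM. The part of these marker levels in the oocyte gene levels of contralateral cumulus library 2 and contralateral granulosa library 3 was not tested.

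The side of the corpus luteum and the cell type were also fitted across all entries with edgeR, and the 10 genes are read from these fits as a description only. Because the standard filter asks for reads in about as many libraries as a group has, only BCL2L10, PABPC1L and SYCP2L entered the cumulus side fit. Their log2 fold changes, ipsilateral minus contralateral, were -6.11 ± 2.19 (SE), -2.25 ± 1.16 and -1.93 ± 0.80. By edgeR's quasi-likelihood test 0 of the 3 were called at an adjusted p under 0.05, against 0% of all 16323 entries tested. The unadjusted p was under 0.05 for 2 of the 3, against 1791 of the 16323 entries. Without the filter 0 of 10 were called, against 0% of 27631 entries. There 7 of the 10 had an unadjusted p under 0.05, against 2502 of the 27631 entries. Without contralateral cumulus library 4 the value of BCL2L10 was -2.99, and without contralateral cumulus libraries 2 and 4 it was -0.29. The value of PABPC1L was then -0.58, that of SYCP2L -2.08 and that of RNF17, which then passed the filter, 1.16, and 0 of the 4 were called, against 0.177% of entries.

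DESeq2 called H1FOO and BCL2L10 lower on the ipsilateral side, 2 of the 8 genes to which it gave an adjusted p, against 0.597% of all 20086 entries. Without contralateral cumulus library 4 it gave an adjusted p to BCL2L10 only, which it did not call, against 0.341% of entries called. The log2 fold changes were then -2.94 ± 1.02 (SE) for BCL2L10 and -3.13 ± 0.99 for H1FOO, to which it gave no unadjusted p either. Contralateral cumulus libraries 1 to 3 had 16, 198 and 4 counts of BCL2L10 and 5, 184 and 9 of H1FOO. Both values thus rest largely on contralateral cumulus library 2. In contralateral against ipsilateral granulosa cells edgeR tested PABPC1L and SYCP2L and called neither (0% of 16411 entries). The unadjusted p was under 0.05 for 0 of the 2 genes, against 579 of the 16411 entries. DESeq2 called 0 of 7 there (0.00376% of entries), with 1 gene, and 903 entries of the whole table, at an unadjusted p under 0.05. These genes were chosen on the same libraries, so nothing is read from these counts.

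Between the cell types, cumulus minus granulosa, the fitted log2 fold changes were 2.23 ± 1.35 (SE) for BCL2L10, 0.65 ± 0.83 for PABPC1L and -0.37 ± 0.82 for SYCP2L. None of the 3 was called by edgeR, where 60.2% of 18038 entries were (29.9% higher and 30.3% lower in cumulus cells). The unadjusted p was under 0.05 for 0 of the 3, against 11548 of the 18038 entries. Without the filter 0 of 10 were called, against 38.9% of entries, and without the 3 libraries that stood out 0 of 4, against 54.5%. BCL2L10 was called, at a log2 fold change of 4.63, when contralateral granulosa library 3 was left out. This was 1 of 4 genes tested, against 10951 of 18434 entries called. H1FOO was tested and called, at 3.43, when contralateral cumulus library 1 was left out. This was 1 of 8, against 10762 of 18631 entries. DESeq2 called 1 of 9, against 52% of entries. This was ZGLP1, which has 0 counts in all 4 ipsilateral granulosa libraries, so that its fitted fold change is no measure of size.

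Other germ-cell and oocyte genes were taken from a list of 217, of which 13 were found by name. Most known oocyte genes, such as those of the zona pellucida, were not found by name and were not analysed here. A place on the list does not mean expression in germ cells only. MAD2L1, for one, had at least 68.6 CPM in each cumulus library and at least 87.7 CPM in each granulosa library. In cumulus against granulosa cells edgeR tested 9 of the 13, of which 5 were higher and 1 was lower in cumulus cells, 6 of 9 against 60.2% of all entries, a share near the background. TDRKH, a tudor-domain protein that anchors the piRNA machinery to mitochondria, had a mean of 7.85 ± 1.99 CPM over the 8 cumulus libraries and 2.10 ± 0.875 CPM over the 8 granulosa libraries (SD), a log2 fold change of 1.90 ± 0.28 (SE, adjusted p = 2.09e-05 by edgeR's quasi-likelihood test). TDRD12, another tudor-domain gene of that pathway, stood at 1.51 ± 0.477 against 0.275 ± 0.336 CPM (log2 fold change 2.5 ± 0.67, adjusted p = 0.00436 by edgeR). The cancer/testis gene CAGE1 stood at 11.8 ± 1.08 against 5.58 ± 2.28 CPM, and the F-box gene FBXW12 at 128 ± 8.54 against 58.5 ± 17.7 CPM. ZCCHC11 (TUT4), which adds uridines to RNA, stood at 78.7 ± 6.10 against 61.3 ± 8.63 CPM. H2AFY2 (MACROH2A2), a macroH2A histone gene, was lower in cumulus cells, at 25.0 ± 6.65 against 54.0 ± 13.9 CPM.

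The other 3 tested genes did not pass by edgeR with all libraries. The spindle checkpoint gene MAD2L1 stood at 99.9 ± 20.7 CPM against 119 ± 20.9 CPM (cumulus against granulosa, adjusted p = 0.0820 by edgeR), and passed without contralateral granulosa library 3 (adjusted p = 0.0465 by edgeR). The transcription factor gene ZBTB20 had an adjusted p of 0.0697 by edgeR. It passed without contralateral granulosa library 3 (adjusted p = 0.0449) and without ipsilateral granulosa library 2 (adjusted p = 0.0229). MAJIN, which tethers meiotic telomeres to the nuclear envelope, had 18, 2, 0 and 1 counts in ipsilateral cumulus and 0, 24, 0 and 51 in contralateral cumulus libraries 1 to 4. It had 0, 0, 0 and 9 counts in ipsilateral granulosa and 0, 0, 3 and 31 in contralateral granulosa libraries 1 to 4. MAJIN was thus highest in contralateral cumulus library 4, as most of the 10 genes were, but contralateral granulosa library 4 came next. Its fitted log2 fold change, cumulus minus granulosa, was 1.41 ± 1.24 (SE) with all libraries and -2.23 ± 1.87 without the 3 that stood out, and it was not called in either fit.

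By side, none of the other listed genes passed. By edgeR this was 0 of 8 tested in cumulus cells (0% of 16323 entries) and 0 of 6 in granulosa cells (0% of 16411). The unadjusted p was under 0.05 for 1 gene in cumulus cells, H2AFY2, against 1791 entries, and for 0 in granulosa cells, against 579 entries. DESeq2 called 0 of 9 in cumulus and 0 of 11 in granulosa cells, against 0.597% and 0.00376% of entries. Most of these genes did not share the steps between libraries of H1FOO and BCL2L10. TDRKH was highest in contralateral cumulus library 4, at 12.1 CPM, where the other cumulus libraries reached 8.88 CPM at most. TDRD12, CAGE1, FBXW12, ZCCHC11 and MAD2L1 were not highest in that library. DUXA and NANOS3 were close to the detection limit: DUXA had 4, 2 and 6 counts in contralateral cumulus libraries 2, 3 and 4 and 0 elsewhere, and LOC112447338 (NANOS3) had 4 counts at most.

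**Figure D5:**
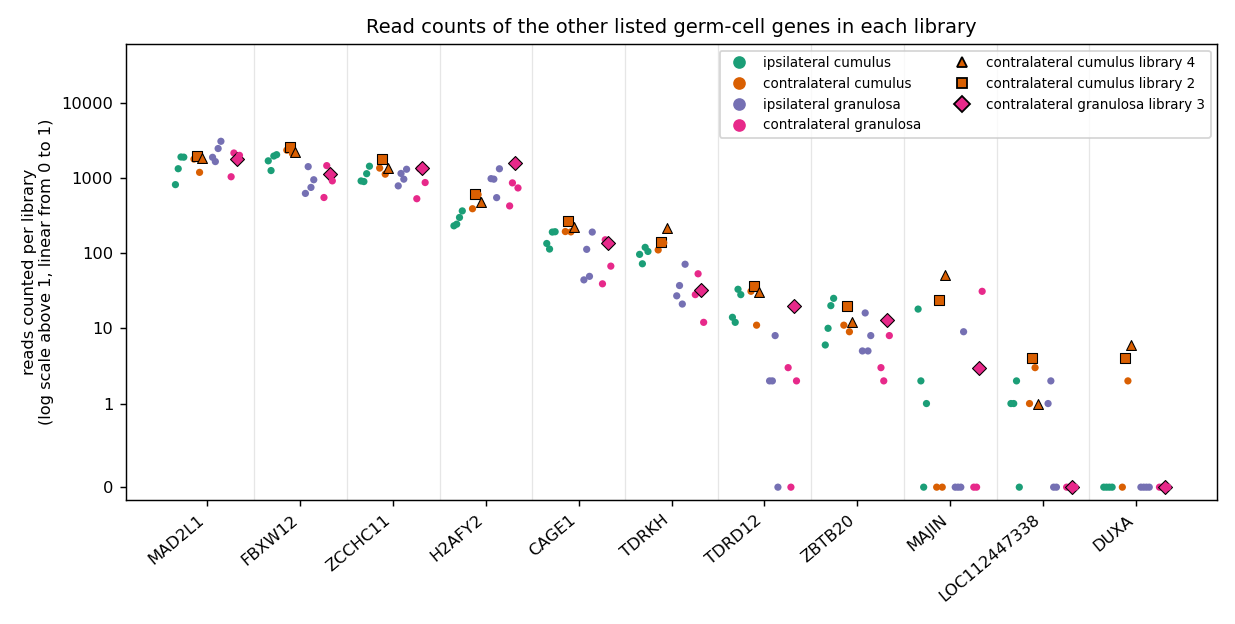
Reads counted in each of the 16 libraries for the 11 other listed genes with at least 10 counts, not all of them specific to germ cells. The axis is linear from 0 to 1 and logarithmic above, with colours and symbols as for the 10 oocyte genes. The counts of TDRKH lie higher in the cumulus than in the granulosa libraries (72 to 213 against 12 to 71). Those of CAGE1 and FBXW12 overlap between the cell types, but their CPM, which allow for depth, do not. CAGE1 ran from 10.25 to 12.9 CPM in cumulus and 2.85 to 8.55 CPM in granulosa libraries. FBXW12 ran from 114 to 142 CPM and from 40.2 to 92.2 CPM. MAJIN reaches its highest counts in contralateral cumulus library 4 (51) and contralateral granulosa library 4 (31).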

How the data were processed

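The deposited table holds raw read counts per gene entry, with no normalization by the authors, and each of its 16 columns bears the title of 1 sample. Per the labels' protocols, the kits were SMART-Seq HT for cDNA and Nextera XT for libraries, read as 75 bp single ends. Per the submitters' processing notes, FastQC, Trimmomatic, STAR and DESeq2 were used. For build, annotation and counter, a name is not given in the sources used here. Of the entries, 27607 carry an Ensembl ID, which the RefSeq gene table of ARS-UCD2.0 does not name, and 2474 have a name. All 10 genes were found by symbol or older symbol. The 10 genes and the lists were chosen with earlier results of these data known.

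CPM were computed from the counts with TMM factors over all libraries. Tests used edgeR 4.0.16 (quasi-likelihood, robust, filterByExpr with minimum count 10 and minimum total 15) with limma 3.58.1 in R 4.3.3, with Benjamini-Hochberg adjustment over all entries tested. DESeq2 1.42.0 was an alternative. Side fits used the 8 libraries of a cell type, and the cell type fit all 16 with 4 group means. SE was taken as |log2 fold change| over √F. The fits were tested on simulated data. Replicates differed by far more than repeat counting would (chi-square per entry from 12.9 to 78.7, where about 1 is a repeat). Named were the 10 genes, other listed genes with at least 10 counts, and the 15 named entries most like the summed genes by Pearson's r.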

Additional observations from a re-analysis of the deposited data

Results flagged for a closer look

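For the 10 genes and their sum, 27 groups of 4 libraries with at least 10 counts in their highest library were examined for a library far from the others, and 14 held one whose gap to its nearest neighbour, as a share of the group's range, exceeded Dixon's 95% critical value. For values with a normal spread, chance gives about 1 in 20 in groups of genes not chosen for their pattern. Low counts with many zeros do not have such a spread, and the sum shares its reads with its genes. The 1 in 20 is therefore no measure for these groups. These genes were grouped for being high in contralateral cumulus library 4, contralateral cumulus library 2 and contralateral granulosa library 3. The values that stand out as high in these libraries therefore restate that choice. Only PABPC1L, low in another library, lies outside it. All 14 are given as values only. In contralateral cumulus cells, library 4 lay far above the rest for the summed genes (280 CPM, next 27.1), H1FOO (92.6 CPM), BCL2L10 (112 CPM), ZGLP1 (25.4 CPM), TDRD15 (17.7 CPM), TCL1B (11.1 CPM), SOHLH1 (2.67 CPM) and RNF17 (1.65 CPM). In contralateral granulosa cells, library 3 did so for H1FOO (5.25 CPM), BCL2L10 (5.55 CPM), ZGLP1 (0.793 CPM), TCL1B (0.842 CPM) and ADAD1 (1.83 CPM). PABPC1L lay far below the other contralateral granulosa libraries in library 2, at 0.159 CPM, which rests on 3 counts.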

How the results depend on the processing

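The summed level in contralateral cumulus library 4 was 104 times the median of the other 15 libraries. This was 109 with library totals in place of TMM factors, 103 with RLE factors, 48.6 without H1FOO and BCL2L10, and 102 to 108 when each other library was left out. In the cumulus side comparison the number of the 10 genes called was 0 by edgeR under each scaling, filter and left-out library. No other entry was called in those fits either. DESeq2 called 2 of 8, against 0.597% of entries. Between the cell types edgeR called 0 of the 3 genes tested with all libraries, against 60.2% of entries, and DESeq2 1 of 9, against 52%. With each library left out edgeR called 0 to 1 (contralateral cumulus library 1 or contralateral granulosa library 3 gave the 1). In those fits 10762 of 18631 and 10951 of 18434 entries were called. In the granulosa side comparison none of the 10 genes was called in any fit run, against 0% of entries by edgeR and 0.00376% by DESeq2. Of the other listed genes, 6 of 9 passed between the cell types, against 60.2% of entries, and 6 to 8 of 9 with each library left out. The 8 came without contralateral granulosa library 3, where 10951 of 18434 entries passed. Without the 3 libraries highest in the 10 genes, an alternative chosen after seeing the data, 7 of 9 passed, against 54.5%. Of the 15 named entries most alike, 6 were again among the first 15 by Spearman's rho, 11 without contralateral cumulus library 4 and 14 with a pseudocount of 0.1. The cause of these shifts was not tested. A count of 0 allows 0.135 to 0.317 CPM. No paired analysis was possible because the labels give no replicate number shared between groups.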

Other observations

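CCNI2 and IGHM, named entries outside the rule for named genes, chosen after their values were seen, were also highest in contralateral cumulus library 4. CCNI2, a cyclin gene, had 915 counts there, 110 in contralateral cumulus library 2, 20 in contralateral granulosa library 3 and 0 to 34 in the other libraries. IGHM, the immunoglobulin mu heavy chain gene of B cells, had 566 counts in contralateral cumulus library 4, 15 in contralateral cumulus library 2, 152 in contralateral granulosa library 3 and 0 to 26 elsewhere.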
